A study of Homo sapiens with 8 samples.

Results

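FGF8+10 was compared with Mock treatment in the RNA of Pdgfra-low cells made from human embryonic stem cells. Of the 8 RNA sequencing libraries of the series, 4 were used as the compared groups. They were the libraries whose titles name Msx1-positive, Pdgfra-low cells, 2 with FGF8+10 and 2 with Mock treatment. Both groups were grown from H1, a long-used human embryonic stem cell line, of the genotype Msx1-P2A-tdTomato, in which a red fluorescent protein is made together with the homeobox factor MSX1. Both groups had the same mesoderm protocol. Day 0 medium held 50 ng/mL Activin A, 6 µM of CHIR99021 (which blocks GSK3 and so mimics WNT), 40 ng/mL BMP4 and 10 ng/mL FGF2. For the next 3 days the medium held 60 ng/mL BMP4 and 1 µM CHIR99021. Aggregates of 25000 cells per well were formed on day 4, moved on day 5 and cultured for 3 days. The FGF8+10 groups received 500 ng/mL of each ligand, and the content of the Mock medium is not given in the sources used here. On day 8 the cells were sorted on the MSX1 reporter and on PDGFRA, so sorting followed the treatment. The other 4 libraries, Pdgfra-positive cells under the same treatments, served for the estimate of spread and for a test of whether the FGF8+10 effect differed between the sorted populations.

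FGF ligands bind receptor tyrosine kinases (FGFR1 to FGFR4) and signal in large part through the RAS and ERK kinase cascade. ERK activity induces its own inhibitors, the Sprouty, SPRED and dual-specificity phosphatase genes, and the ETS family transcription factors ETV1, ETV4 and ETV5. In the limb bud, FGF10 made by the mesenchyme and FGF8 made by the overlying ectodermal ridge maintain each other. The mesenchyme then grows and is patterned under WNT, BMP, hedgehog and retinoic acid signals.

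The 4 Pdgfra-low libraries held 49790227 and 55329666 counts with FGF8+10 and 63990830 and 63700869 with Mock. Each mate of a pair added a count. Levels are CPM, counts relative to the TMM-scaled library size, and pairs of values are replicates 1 and 2. Changes are log2 fold changes ± SE from edgeR's quasi-likelihood test, fitted to the 8 libraries together (n = 2 in each group), and a gene was called at a Benjamini-Hochberg adjusted p under 0.05 over the 22554 genes tested. Of the sort genes, MSX1 was at 26.2 and 26.1 CPM with Mock and 52.8 and 48.6 CPM with FGF8+10. PDGFRA was at 194 and 189 CPM with Mock and 279 and 292 CPM with FGF8+10. Both rose (log2 fold changes 0.95 ± 0.058 and 0.58 ± 0.025), and whether the gate took the same kinds of cells under both treatments was not tested. In these bulk samples, fewer cells of a type and less RNA per cell cannot be told apart. The labels call the libraries biological replicates but do not say whether each was a differentiation of its own. The p-values therefore cover the spread between these libraries, which may be technical.

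With FGF8+10, 6300 genes were higher (27.9% of those tested) and 6256 lower (27.7%), so that 55.7% of all tested genes were called in one direction or the other. Changes of at least 2-fold were called for 2131 genes upward (9.45%) and 2664 downward (11.8%), together 21.3%. The median over all genes was -0.015 on the log2 scale. Scaled by library totals alone, that median moved to 0.15 and the split of calls became 8113 higher and 4672 lower, so the direction of changes below about that size is relative to the TMM scaling. The 10 most abundant genes took 14.3% of the counts in each Mock library and 6.34% to 6.35% with FGF8+10. Of 373 transcription factor genes outside the numbered zinc finger family, 46.1% were called with at least a 2-fold change. The share was 49.7% of 388 genes of secreted signalling pathways, 48.7% of 228 extracellular matrix genes and 21.4% of 794 genes of metabolism and growth. Changes of at least 8-fold were called for 2.58% of all tested genes upward and 3.51% downward. Among the 373 transcription factors 32 rose and 20 fell by that much, and among 401 genes of secreted signals with the FGF ligands 40 rose and 37 fell.

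**Figure D1:**
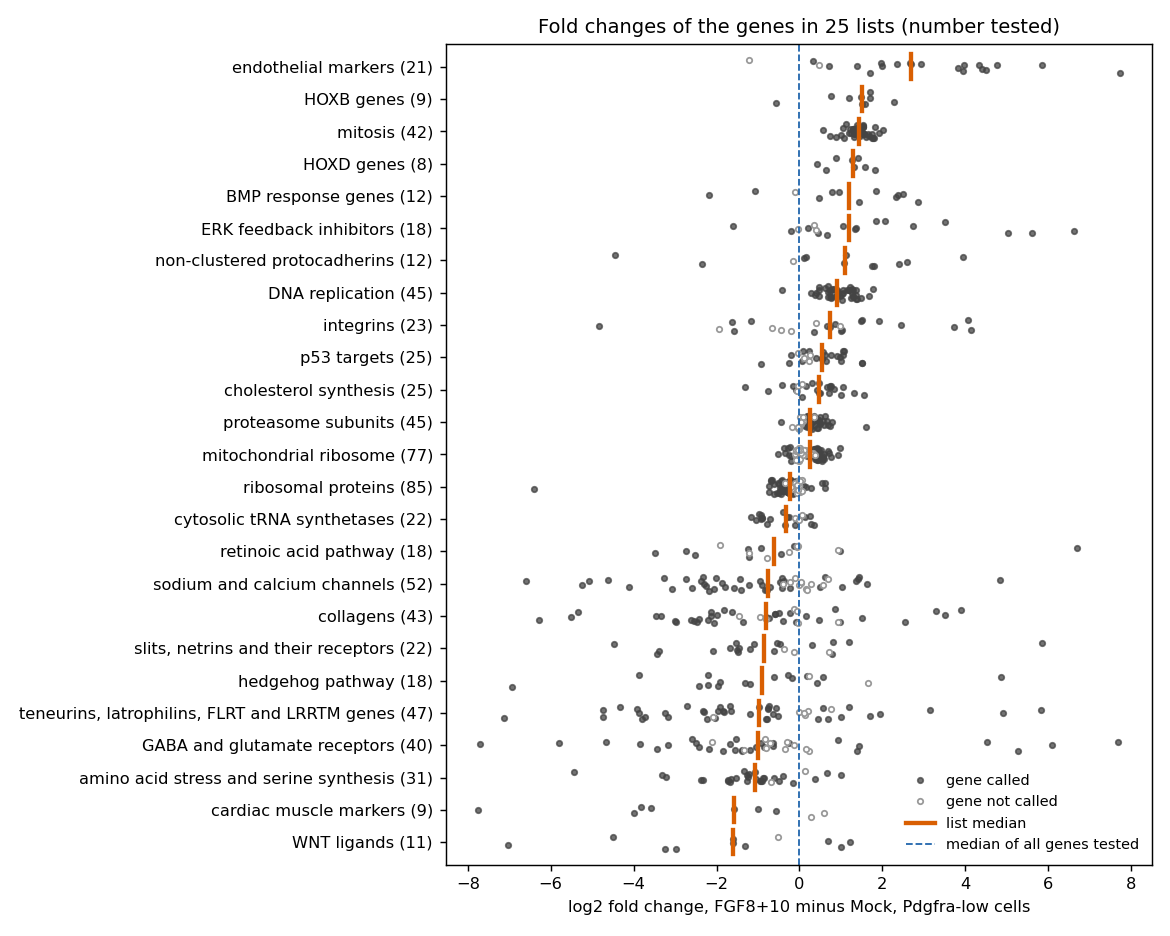
Each point is 1 tested gene of the list named at the left, placed by its log2 fold change with FGF8+10 against Mock in Pdgfra-low cells, and filled where it was called. Orange bars are list medians and the dashed line is the median of all genes tested. Endothelial, mitosis and HOXB genes lie mostly to the right, and WNT ligand, cardiac and amino acid stress genes mostly to the left.

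Among the FGF ligand genes, whose RNA is the cells' own and not that of the supplied proteins, 7 of 13 tested were higher and 4 lower. FGF10, the mesenchymal ligand of the limb bud, stood at 2.50 and 2.75 CPM with Mock and 33.8 and 34.1 CPM with FGF8+10. FGF19, known as an endocrine ligand, stood at 0.131 and 0.331 CPM with Mock and 3.96 and 5.83 CPM with FGF8+10, and FGF9 at 0.246 and 0.198 CPM with Mock and 3.07 and 3.36 CPM with FGF8+10. For these 3 genes, as for 37.4% of all genes tested, both FGF8+10 libraries lay above both Mock libraries, with log2 fold changes of 3.69 ± 0.093, 4.40 ± 0.35 and 3.84 ± 0.27. FGF18, a ligand of cartilage and bone, moved the other way, from 2.05 and 2.07 CPM to 0.0377 and 0.136 CPM (-4.50 ± 0.60). In Pdgfra-positive cells its log2 fold change was 0.12 ± 0.76, and the effects differed (difference -4.62 ± 0.99, adjusted p = 0.000275). The most abundant ligand RNA per kilobase in both groups was FGF7, a mesenchymal ligand of FGFR2, which was at 105 and 102 CPM with Mock and 51.2 and 53.8 CPM with FGF8+10. FGF1 and FGF3, both under 1 CPM, and FGF12 were also higher, and FGF11 and FGF13 lower. The calls of FGF3, FGF11 and FGF2 were each lost when 1 of the Pdgfra-low libraries was left out, and 82.1% of the exon bases of FGF11 are shared with other genes. FGF2 rose by 0.39 ± 0.11, and the effects on FGF17 and FGF22 were not called.

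Receptors and their partners mostly fell, with 8 of 13 lower and 1 higher. FGFR2, whose splice forms bind FGF7 and FGF10 or FGF8, had been the most abundant member per kilobase with Mock, at 1690.3 and 1694 CPM, and stood at 147 and 145 CPM with FGF8+10 (-3.53 ± 0.022). FGFR3 had 152 and 149.5 CPM with Mock and 18.0 and 19.6 CPM with FGF8+10. FGFR1, the main mesenchymal receptor, was the gene that rose, from 182 and 165 CPM to 304 and 296 CPM. Per kilobase of annotated exon, FGFR2 thus went from 89.9 to 7.76 CPM and FGFR1 from 10.1 to 17.4 CPM, so their order turned. The adaptor gene FRS2, which links the receptors to RAS, was at 70.2 and 68.9 CPM with Mock and 67.5 and 70.7 CPM with FGF8+10 and was not called. The membrane proteins FLRT1, FLRT2 and FLRT3, which bind FGF receptors, fell by 3.80 ± 0.28, 0.53 ± 0.021 and 0.78 ± 0.03 on the log2 scale. FGFR4, the decoy-like receptor FGFRL1 and the carrier protein gene FGFBP3 fell by 1.83 ± 0.26, 0.55 ± 0.06 and 0.60 ± 0.16. KLB, FRS3 and ANOS1 were not called.

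Inhibitors of ERK signalling rose as a group, 13 of 18 higher and 2 lower, with a median of 1.19. Besides the Sprouty, SPRED and phosphatase genes, the list held IL17RD, ERRFI1, CBL, RASA1, RASA2 and RASA3. SPRY4 was at 1.59 and 1.60 CPM with Mock and 158 and 155 CPM with FGF8+10, SPRY1 at 3.37 and 3.64 CPM (Mock) and 174 and 171 CPM (FGF8+10), and SPRY2 at 12.9 and 14.1 CPM (Mock) and 89.1 and 90.1 CPM (FGF8+10). DUSP6, the phosphatase that removes phosphate from ERK, was at 1.87 and 2.08 CPM with Mock and 64.3 and 64.9 CPM with FGF8+10, with 28.6% of its exon bases shared with another gene. For SPRY4, SPRY1, SPRY2 and DUSP6 the libraries of the groups did not overlap, again as for 37.4% of all genes in this direction. The rise of SPRY4 was 6.61 ± 0.07 here and 3.33 ± 0.057 in Pdgfra-positive cells, and that of DUSP6 was 5.03 ± 0.092 and 2.55 ± 0.089. Both differences were called (adjusted p = 2.05e-27 and 6.34e-19). DUSP5, a nuclear ERK phosphatase, rose by 3.51 ± 0.22 here against 0.48 ± 0.23 there. Of the 10 inhibitors whose effects differed, 9 had the more positive effect in Pdgfra-low cells. SPRED1, SPRED2, SPRY3, IL17RD, CBL, RASA1, RASA2 and RASA3 were also higher. The 2 that fell were ERRFI1, an inhibitor of the EGF receptor (361 and 358 CPM with Mock, 119 and 118 CPM with FGF8+10), and DUSP4 (-0.21 ± 0.087), whose call was lost under library totals alone, under DESeq2 and without single Pdgfra-low libraries. The effects on SPRED3, DUSP7 and DUSP9 were not called.

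Among ETS factors, DNA-binding proteins of which several are phosphorylated by ERK, 10 of 22 were higher and 6 lower. Of all genes tested 27.9% were higher and 27.7% lower. The PEA3 subfamily rose, ETV4 from 0.263 and 0.281 to 45.3 and 47.7 CPM and ETV5 from 6.62 and 5.95 to 43.6 and 46.4 CPM. ETV1 reached 92.3 and 85.0 CPM in the 2 FGF8+10 libraries. The factors FLI1 and ERG, which act in endothelial and blood development, rose from 5.98 and 6.38 to 131 and 131 CPM and from 6.34 and 6.07 to 48.7 and 46.7 CPM. ERG rose by 2.94 ± 0.081 here against 0.53 ± 0.076 in Pdgfra-positive cells (adjusted p of the difference = 3.31e-22). FEV had 4 counts in the Mock group, and the ratio of counts was 66.8 (exact binomial 95% interval over pairs 18.1 to 558). ETV6, ETS1, ELK3 and ERF were higher. ELF3, an epithelial factor, fell from 2.32 to 0.0983 CPM in the mean, and ETS2, ELF4, ELK1, ETV3 and ELF1 also fell. ELK4, ELF2, SPDEF, SPI1, ETV2 and GABPA were not called.

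**Figure D2:**
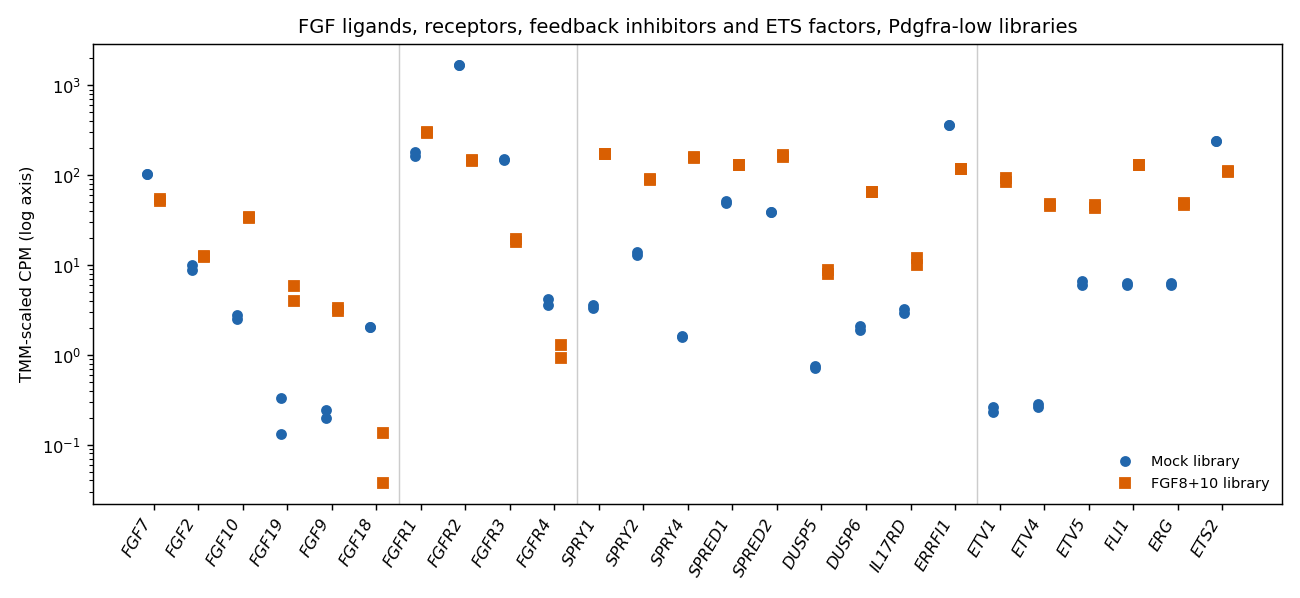
Points are the TMM-scaled CPM of single Pdgfra-low libraries on a log axis, blue circles for the 2 Mock and orange squares for the 2 FGF8+10 libraries, with genes grouped as ligands, receptors, feedback inhibitors and ETS factors. SPRY1, SPRY4, DUSP6, ETV1 and ETV4 show wide upward gaps, and FGF18, FGFR2, FGFR3 and ERRFI1 lie lower with FGF8+10.

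Immediate early factors, which growth factors induce within an hour and which then decay, were not higher as a group at day 8: 6 of 25 were higher and 13 lower (10 and 11 under library totals alone). FOSL1, an AP-1 subunit induced through ERK, rose from 0.131 and 0.463 to 1.96 and 1.76 CPM and NR4A1 from 3.83 and 4.43 to 8.60 and 8.68 CPM. KLF4 fell from 10.2 and 11 to 1.19 and 1.48 CPM and MYCN from 19.6 and 21.6 to 8.04 and 7.93 CPM. JUND, the most abundant member per kilobase, fell by 0.74 ± 0.033. EGR2, which had 0.854 and 1.55 CPM with Mock, had 2 counts in the FGF8+10 group.

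HOX genes, which give cells their position along the body and limb axes, mostly rose. In HOXB 8 of 9 were higher (median 1.52), in HOXD 8 of 8 (1.29), in HOXA 7 of 11 (1.10) and in HOXC 4 of 7 (0.59). HOXB8 was at 12.3 and 9.97 CPM with Mock and 53.5 and 54.1 CPM with FGF8+10, and HOXB9, the HOXB gene with the highest level per kilobase with FGF8+10, at 38.5 and 38.1 CPM (Mock) and 63.4 and 65.3 CPM (FGF8+10). HOXC10, a posterior gene expressed in hindlimb buds, was at 0.509 and 0.215 CPM with Mock and 9.60 and 10.4 CPM with FGF8+10, and its rise of 4.78 ± 0.25 exceeded the 3.36 ± 0.26 of Pdgfra-positive cells (adjusted p of the difference = 0.00833). The genes that fell were the last in their clusters or next to it. HOXA13, a gene of the hand and foot plate, fell from 127 and 133 to 51.9 and 50.8 CPM, HOXB13 from 47.5 and 47.5 to 33.0 and 31.6 CPM and HOXA11 from 12.9 and 11.9 to 7.66 and 9.29 CPM. HOXD13 did not follow them: it rose by 0.42 ± 0.11. The summed HOXA level was lower with FGF8+10 (87.1 and 88.2 CPM) than with Mock (154 and 160.5 CPM), while the summed HOXB level was higher (402 and 397 against 184 and 182 CPM). Neighbouring HOX genes share exon sequence in part (32.9% of the bases of HOXB6), and the counts do not use strand, so neighbours are not fully separate measurements. The FGF8+10 effect differed between the populations for 0 of 8 HOXD genes and for 5 of 9 HOXB genes, against 26.0% of all genes tested, and whether the clusters differ in this was not tested.

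**Figure D3:**
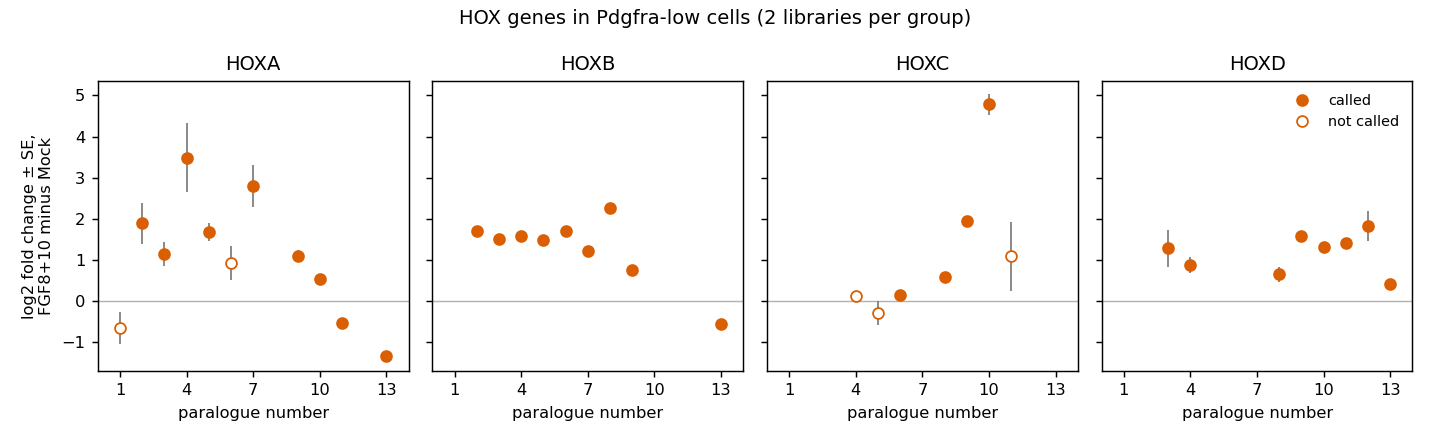
Log2 fold changes (FGF8+10 minus Mock, ± SE) of the tested HOX genes in Pdgfra-low cells by paralogue number, 1 panel per cluster, with filled points for called genes. HOXA13, HOXA11 and HOXB13 lie below 0, HOXC10 is the highest point, and the tested HOXD genes all lie above 0.

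Limb and lateral plate transcription factors moved in both directions. The limb mesenchyme list (34 tested) had 14 higher and 17 lower, and of 26 lateral plate genes 11 and 12, splits that turned to 16 and 15, and 14 and 10, under library totals alone. TBX3, a limb factor, rose from 244 and 255 to 596 and 598 CPM, and ISL1, a factor of hindlimb and heart progenitors, from 1.76 and 2.38 to 18.8 and 20.8 CPM. TBX4, the hindlimb T-box factor, fell from 87.6 and 84.9 to 14.6 and 13.9 CPM and TBX2 from 172 and 175 to 47.2 and 41.1 CPM. LHX2, which in the limb bud answers to FGF and keeps SHH expressed, fell from 7.03 and 6.27 to 0.189 and 0.443 CPM (-4.36 ± 0.29). Its fall was larger than in Pdgfra-positive cells (-2.81 ± 0.35, adjusted p of the difference = 0.0172). The homeobox factor HLX rose by 6.26 ± 0.27, from 0.148 and 0.132 to 11 and 10.9 CPM.

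Homeobox factors of the paired type fell more often than they rose, 6 of 11 lower and 1 higher. SHOX2, a factor of the proximal limb, was at 50.1 and 46.5 CPM with Mock and 2.45 and 3.62 CPM with FGF8+10. ALX4 fell by 3.22 ± 0.31 and PRRX2 by 1.72 ± 0.14. MSX2, the relative of the sort gene MSX1 and a BMP target, fell from 38.4 and 38.6 to 9.75 and 7.30 CPM while MSX1 rose. DLX2 and the eye-absent factor EYA2 had 3 and 2 counts in the FGF8+10 group. The ratios of Mock to FGF8+10 counts were 105 for DLX2 (95% interval 21.6 to 659) and 189 for EYA2 (33.5 to 7490.0). EYA1 and DACH1, of the same network, rose by 2.80 ± 0.44 and 1.52 ± 0.051.

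Several single factors known from endothelium or blood development rose. GATA2 was at 6.83 and 8.60 CPM with Mock and 111 and 113 CPM with FGF8+10 and HHEX at 0.279 and 0.331 CPM (Mock) and 29.0 and 28.7 CPM (FGF8+10). TAL1, a partner of GATA factors in blood formation, went from 0.312 and 0.463 to 3.45 and 4.45 CPM here. In Pdgfra-positive cells its log2 fold change was -0.97 ± 0.46 (adjusted p of the difference = 5.24e-08). SOX18 and SOX7, endothelial SOX factors, rose by 3.95 ± 0.27 and 4.94 ± 0.23 against 0.89 ± 0.26 and 1.24 ± 0.21 there, and 39.4% of the exon bases of SOX7 are shared with other genes. The GATA factors of heart and gut did not follow GATA2. GATA6 fell from 159 and 156 to 68.8 and 68.1 CPM, GATA5 from 46.8 and 45.2 to 15.4 and 15.8 CPM and the GATA cofactor ZFPM2 from 114 and 110.3 to 24.2 and 23.1 CPM, while GATA4 rose by 0.20 ± 0.03.

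Other DNA-binding families held single large changes. Among 42 nuclear receptors (17 higher, 13 lower), NR5A2 rose from 0.0329 and 0.182 to 14.4 and 15.1 CPM and NR2F1 from 1.99 and 1.62 to 28.1 and 25.8 CPM, and the mineralocorticoid receptor NR3C2 fell by 3.80 ± 0.29. RUNX2, the master factor of bone, rose from 0.953 and 0.777 to 24.7 and 26.0 CPM and MEF2C from 6.67 and 5.92 to 44.7 and 43.1 CPM. EBF2 fell from 15.0 and 13.8 to 0.0754 and 0.205 CPM, and TOX3 from 68.2 and 66.1 to 12.2 and 12.6 CPM, a fall of 2.44 ± 0.056 against -0.54 ± 0.048 in Pdgfra-positive cells. CDX2, which activates posterior HOX genes, rose from 21.0 and 20.1 to 108 and 104 CPM, and LIN28A, the RNA-binding repressor of let-7 microRNAs, from 43.1 and 40.4 to 218 and 218 CPM. OSR2 had no read with FGF8+10 and was at least 262-fold lower, taking 6 counts as the group's detection floor, and its relative OSR1 fell from 66.9 and 65.5 to 10.8 and 10.8 CPM. Of 492 numbered zinc finger genes, most of them KRAB-type repressors, 164 were higher and 109 lower, and 20 and 10 by at least 2-fold, which is below the 9.45% and 11.8% of all genes. HAND1, the most abundant helix-loop-helix factor per kilobase in both groups, was at 521 and 522 CPM with Mock and 503 and 502 CPM with FGF8+10.

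**Figure D4:**
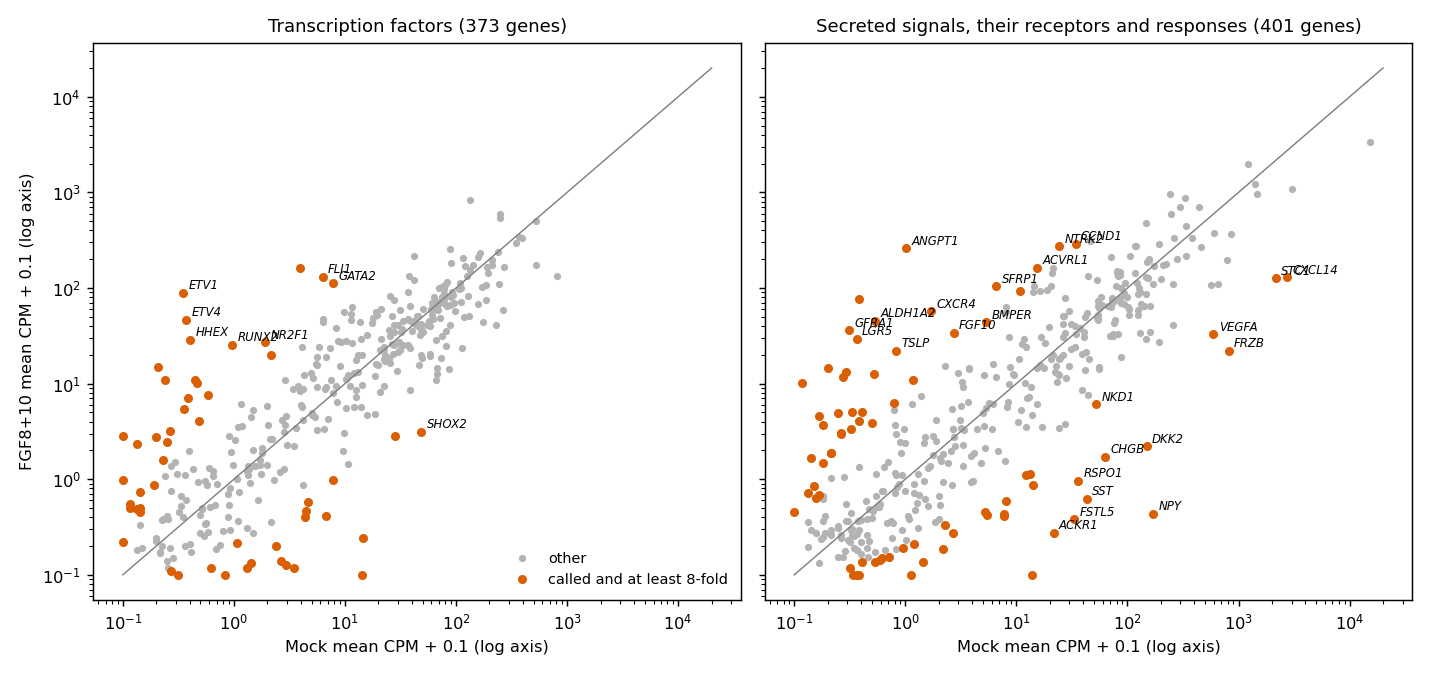
Each point is 1 gene, placed by its mean CPM with Mock (horizontal) and with FGF8+10 (vertical), both with 0.1 CPM added and on log axes, for 373 transcription factors (left) and 401 genes of secreted signalling pathways including the FGF ligands (right). Orange points are called and changed at least 8-fold, those of them described in the text and above 20 CPM in either group are labelled, and the diagonal marks equal levels. ETV1, FLI1, GATA2 and ANGPT1 lie far above the diagonal, and CXCL14, STC1, VEGFA, FRZB and NPY far below it.

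WNT ligand genes fell more often than they rose. Of 11 WNT ligands 7 were lower and 3 higher, with a median of -1.61. WNT2, a ligand of lung and heart mesoderm, went from 7.49 and 7.69 to 0.377 and 0.290 CPM, a fall of 4.51 ± 0.27 against -0.61 ± 0.29 in Pdgfra-positive cells (adjusted p of the difference = 1.53e-10). WNT3 and WNT5B fell by 1.61 ± 0.072 and 1.31 ± 0.049, whereas WNT5A, the limb outgrowth ligand, rose from 119.5 and 119.8 to 277 and 278 CPM and WNT11 from 19.9 and 19.2 to 41.1 and 37.6 CPM. The R-spondins, which strengthen WNT signals, fell, RSPO2 from 557 and 567 to 104 and 109.5 CPM and RSPO1 from 35.9 and 35.8 to 0.792 and 0.921 CPM. Of their receptors, LGR5 rose from 0.214 and 0.314 to 29.4 and 28.9 CPM and LGR4 from 298 and 295 to 698 and 699 CPM. LGR6 went the other way, with 161 counts in the Mock group and 4 in the FGF8+10 group. The ratio of Mock to FGF8+10 counts was 37.0 (exact binomial interval 9.86 to 309). Of the secreted antagonists, FRZB went from 808 and 816 to 21.4 and 22.3 CPM and DKK2 from 146 and 150.4 to 2.00 and 2.20 CPM, while SFRP1 rose from 6.14 and 6.86 to 102 and 106 CPM. SOST, the sclerostin gene of bone, rose from 0.0986 and 0.0331 to 4.00 and 4.91 CPM. SFRP5 had no read with FGF8+10 and was at least 255-fold lower against the same floor. Common targets of the pathway moved both ways, 6 of 15 higher and 7 lower, and 6 and 4 by at least 2-fold. AXIN2 and NKD1 fell by 1.00 ± 0.075 and 3.13 ± 0.088 and CCND1 rose by 3.09 ± 0.042.

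BMP response genes rose more often than they fell. Of 12 BMP response genes 9 were higher and 2 lower (median 1.19). The inhibitor of differentiation gene ID3 was at 14.9 and 13.7 CPM with Mock and 104 and 105 CPM with FGF8+10, and SMAD9, a receptor-regulated SMAD, at 20.5 and 19.9 CPM (Mock) and 102 and 106 CPM (FGF8+10). The exceptions were MSX2 and the inhibitory SMAD7, which fell by 1.07 ± 0.04. Among the ligands, BMP2 was at 49.2 and 42.2 CPM with Mock and 317 and 299.8 CPM with FGF8+10. BMP10, known as a heart and endothelial ligand, rose from 0.0657 and 0.132 to 14.2 and 14.9 CPM, and BMP6 from 0.542 and 0.827 to 6.02 and 6.41 CPM. BMP6 rose by 3.18 ± 0.27 here against 0.60 ± 0.33 in Pdgfra-positive cells. ACVRL1, the endothelial receptor of BMP10, rose from 15.2 and 15.1 to 163 and 161 CPM. The antagonists split, with BMPER higher (3.05 ± 0.083) and FST and NOG lower (-2.85 ± 0.13 and -1.32 ± 0.22). NOG had a log2 fold change of 0.64 ± 0.31 in Pdgfra-positive cells (adjusted p of the difference = 5.25e-05). FSTL5 fell from 33.0 and 33.5 to 0.358 and 0.205 CPM.

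Hedgehog pathway genes fell, 12 of 18 lower and 4 higher, with a median of -0.90. PTCH1 and GLI1 are receptor and transcription factor and are also standard targets of the pathway. PTCH1 was at 159 and 158 CPM with Mock and 35.0 and 33.4 CPM with FGF8+10, and GLI1 at 3.93 and 3.94 CPM (Mock) and 1.09 and 0.614 CPM (FGF8+10). HHIP, another target, moved against them, from 0.329 and 0.513 to 11.8 and 12.9 CPM, and GLI3 rose by 0.17 ± 0.037. In the retinoic acid pathway ALDH1A2, the synthesising enzyme of embryonic mesoderm, rose from 0.345 and 0.529 to 44.9 and 46.2 CPM. Its rise of 6.70 ± 0.12 exceeded the 3.35 ± 0.076 of Pdgfra-positive cells. DHRS3, a reductase that lowers retinoic acid, went from 1.31 and 2.17 to 0.207 and 0.307 CPM here (-2.74 ± 0.49). In Pdgfra-positive cells it was barely detected, with means of 0.0224 CPM with Mock and 0.0442 CPM with FGF8+10. Its log2 fold change there, 0.97 ± 1.16, was not called. Of the whole list 8 of 18 were lower and 2 higher, the lower ones including RARG and the retinol transporter gene STRA6. In the Notch pathway 8 of 23 were higher and 10 lower. The effector HEY1 rose from 19.3 and 18.2 to 93.9 and 95.6 CPM, JAG1 rose by 1.23 ± 0.093, and the ligand JAG2 and the receptor NOTCH2 fell by 1.86 ± 0.18 and 0.77 ± 0.024.

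Angiogenic factors moved in both directions. ANGPT1, the activating ligand of the receptor TEK, stood at 258 and 262 CPM with FGF8+10 against 0.854 and 0.992 CPM with Mock, and ANGPT2, which can oppose it, at 144 and 144 against 20.9 and 21.1 CPM. VEGFA, the ligand of KDR, went from 606 and 580.3 CPM to 32.6 and 32.5 CPM. KDR, already the most abundant receptor of this family per kilobase, rose from 1208 and 1202 to 1968 and 1970.0 CPM, and the co-receptor gene NRP1 from 234 and 245 to 945 and 957 CPM. In the IGF family the binding protein gene IGFBP3 fell from 15113 and 15250.0 to 3363 and 3407 CPM, the largest fall in CPM of the signalling genes listed, while IGFBP2 rose from 15.4 and 16.8 to 91.0 and 93.2 CPM and IGFBP7 from 0.115 and 0.265 to 13.4 and 12.7 CPM. IGF2 fell by 1.49 ± 0.019, but 44.4% of its exon bases are shared with other genes. In the neurotrophin and GDNF families NTRK2 rose from 23.7 and 24.4 to 271 and 275 CPM, and the co-receptor GFRA1 and its partner RET rose by 7.38 ± 0.15 and 2.92 ± 0.23. The tyrosine kinase receptors ALK and ERBB4 fell by 4.21 ± 0.18 and 3.66 ± 0.21.

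Chemokines and small secreted peptides held some of the largest changes. CXCL14, which had been at 2754 and 2729 CPM with Mock, stood at 131 and 128 CPM with FGF8+10. CXCL12 and its receptor CXCR4, a pair that guides migrating cells, rose from 14.6 and 13.5 to 90.3 and 90.6 CPM and from 1.66 and 1.52 to 54.5 and 59.6 CPM. ACKR3, the scavenging receptor for CXCL12, fell from 259 and 255 to 41.9 and 40.5 CPM, and ACKR1 from 22.2 and 20.8 to 0.245 and 0.102 CPM. Of 25 peptide hormone genes 8 were higher and 10 lower. STC1, a glycoprotein hormone, fell from 2156 and 2165 to 124 and 129 CPM, the neuropeptide NPY from 171 and 172 to 0.340 and 0.324 CPM, somatostatin (SST) from 43.1 and 42.3 to 0.566 and 0.477 CPM and the granin CHGB from 63.0 and 62.8 to 1.58 and 1.65 CPM. Endothelin-1 (EDN1) rose from 0.279 and 0.331 to 4.15 and 5.66 CPM and adrenomedullin (ADM) from 1.02 and 1.12 to 10.7 and 11 CPM. The adrenomedullin receptor gene CALCRL rose with it, from 5.14 and 6.24 to 242 and 249.9 CPM. Neurotensin (NTS) rose by 6.04 ± 0.25 here against 0.98 ± 0.21 in Pdgfra-positive cells. Among cytokines TSLP rose from 0.772 and 0.678 to 20.4 and 23.2 CPM, IL33 rose by 3.83 ± 0.40 against -0.24 ± 0.43 there, and IL11 fell by 2.30 ± 0.13. The anti-angiogenic serpin SERPINF1 fell from 658 and 644 to 113 and 106 CPM.

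Fibrillar collagens and fibroblast matrix genes fell, and a smaller group of matrix genes rose. Of 43 collagen genes 27 were lower and 9 higher (median -0.81). COL3A1 went from 53755 and 53881 to 15191 and 15086 CPM, COL1A1 fell by 2.43 ± 0.021 and COL1A2 by 2.48 ± 0.015. COL15A1, a basement membrane collagen, went from 562 and 561 to 11.9 and 12.5 CPM. Those that rose included COL12A1 and COL26A1, the latter from 15.4 and 14.4 to 167 and 171 CPM. The proteoglycan decorin (DCN) fell from 3604 and 3678 to 95.7 and 99.8 CPM and versican (VCAN) from 4981 and 5007 to 667 and 669 CPM, whereas lumican (LUM), of the same family as decorin, was at 3167 and 3325 CPM (Mock) and 3635 and 3727 CPM (FGF8+10). Among proteins that modulate cell adhesion (8 higher and 16 lower of 30), tenascin C (TNC) rose from 4.48 and 5.57 to 340.4 and 343 CPM and TGFBI from 17.9 and 17.8 to 856 and 871 CPM, and periostin (POSTN) fell from 1779 and 1821 to 127 and 122 CPM. Fibrillin-1 (FBN1), the backbone of microfibrils, rose from 541 and 542 to 3692 and 3762 CPM, the largest rise in CPM of all genes tested. The crosslinking enzyme LOX rose with it, from 40.0 and 39.2 to 289 and 291 CPM, and the microfibril protein MFAP4 fell from 1439 and 1457 to 153 and 151 CPM. TIMP3, a protease inhibitor, rose by 3.00 ± 0.027 and SULF2, which trims heparan sulfate and thereby alters FGF and WNT binding, from 36.3 and 39.9 to 296 and 299 CPM. The aggrecan gene ACAN fell from 38 and 36.4 to 2.49 and 2.13 CPM, and of 22 chondrocyte genes 11 were lower and 4 higher.

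Receptors for matrix were more often higher. Of 23 integrin subunits 13 were higher and 4 lower (median 0.73). ITGA8, a receptor for nephronectin and tenascin, rose from 21.3 and 21.7 to 288 and 285 CPM, ITGA4 from 0.903 and 0.860 to 14.9 and 16.2 CPM and the common beta subunit ITGB1 from 809 and 833 to 1675 and 1691 CPM. The laminin receptor subunit ITGA6 went from 350.1 and 352 to 11.8 and 12.7 CPM, a fall of 4.84 ± 0.045 against -2.09 ± 0.056 in Pdgfra-positive cells, and the laminin chains LAMA2, LAMB2 and LAMA1 fell by 4.64 ± 0.05, 2.03 ± 0.022 and 1.78 ± 0.034. Of 12 non-clustered protocadherins, homophilic adhesion proteins, 9 were higher, with PCDH17 going from 30.2 and 28.7 to 183 and 176 CPM, and PCDH19 fell from 254 and 247 to 11.6 and 11.3 CPM. The cadherin CDH11 of mesenchyme rose from 517 and 534 to 1276 and 1281 CPM, and the gap junction gene GJA1 (connexin 43) fell from 2428 and 2496 to 726 and 724 CPM. Among guidance cues, SEMA3E went from 55.1 and 55.1 to 1.17 and 0.716 CPM and SLIT2 from 581 and 575 to 268 and 272 CPM, and EPHA4, an ephrin receptor of limb mesenchyme, rose from 8.49 and 6.07 to 70.4 and 71.2 CPM. Of 22 slits, netrins and their receptors 14 were lower and 5 higher.

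Genes best known from neurons and synapses, many of which mesenchyme also expresses, were lower in most families. Synaptic adhesion genes (teneurins, contactins, neurexins, SLITRK and LRRTM genes) were lower in 31 of 47 and higher in 10, with a median of -0.98. CNTN5 went from 161 and 163 to 0.924 and 1.36 CPM, while SLITRK6 rose from 4.24 and 4.83 to 255 and 263 CPM. GABA, glycine and glutamate receptor genes were lower in 23 of 40 and higher in 7. Sodium, calcium and TRP channels had 33 of 52 lower and 8 higher, and potassium channels 34 of 67 lower and 18 higher. PIEZO2, a mechanically gated channel, rose from 2.45 and 2.50 to 70.1 and 70.3 CPM. The potassium channel genes KCND2 and KCND3, which encode channels of 1 subfamily, moved apart, from 45.2 and 45.3 to 1.23 and 1.04 CPM and from 3.20 and 2.4 to 59.6 and 61.3 CPM. Acetylcholine genes split in the same way: the muscarinic receptor CHRM2 rose from 22.9 and 21.6 to 227 and 228 CPM, and SLC18A3, which loads acetylcholine into vesicles, had 4 counts in the FGF8+10 group against 92.9 and 87.7 CPM with Mock. The natriuretic peptide receptor gene NPR1 rose from 1.20 and 1.67 to 81.5 and 83.0 CPM and the adrenergic receptor gene ADRA2A from 5.08 and 5.59 to 122 and 114 CPM, and the dopamine receptor gene DRD2 fell from 118 and 114 to 5.26 and 4.81 CPM.

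Proliferation genes rose almost without exception. Of 42 mitosis genes 42 were higher (median 1.44) and of 45 DNA replication genes 44 were higher and 1, the polymerase subunit gene POLD2, lower (median 0.91). The promoters of many such genes carry one of 2 short elements. The CHR element binds the DREAM and MuvB repressor and activator complexes at late cell cycle genes, and the E2F site governs genes of the G1 to S transition. The letters TTTGAA, the core of the CHR, occurred on either strand in 25 of the 35 mitosis genes with a RefSeq promoter (71.4%) and in 18.17% of all 27305 genes with one. The E2F letters TTTGGCGC or TTTCGCGC occurred in 13 of 38 replication genes (34.2%) and in 1.40% of all genes. The windows searched ran from 250 bases before to 50 after each start, and a match is a description and not a bound site. Stretches upstream of the start are from RefSeq, GRCh38.p14, 5′ to 3′ on the gene's strand, with the motif or its reverse complement in capitals. They are shown for some of the genes of at least 1 CPM with large changes and a match upstream of the start. Not every gene of the lists was open to this choice, so the genes shown need not have the largest changes. The first set has CHR letters and the second E2F letters:
SPC25, chr2:168890642-168890680, minus strand: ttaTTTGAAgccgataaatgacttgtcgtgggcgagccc
ASPM, chr1:197146747-197146812, minus strand: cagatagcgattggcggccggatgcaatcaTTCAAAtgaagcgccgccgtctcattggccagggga
CENPA, chr2:26786008-26786055, plus strand: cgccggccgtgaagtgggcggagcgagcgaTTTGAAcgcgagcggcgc
MCM7, chr7:100101398-100101436, minus strand: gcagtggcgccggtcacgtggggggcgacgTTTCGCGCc
UHRF1, chr19:4909954-4910021, plus strand: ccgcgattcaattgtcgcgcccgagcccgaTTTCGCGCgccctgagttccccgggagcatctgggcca
MCM6, chr2:135876492-135876559, minus strand: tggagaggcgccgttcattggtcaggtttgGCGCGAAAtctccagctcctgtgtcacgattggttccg

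The genes of these promoters were chosen among called genes of lists in which nearly all genes rose. Their own rises are therefore not a further result about the motifs. SPC25, a kinetochore subunit, was at 7.65 and 7.92 CPM with Mock and 30.1 and 28.4 CPM with FGF8+10, ASPM, a spindle pole protein, at 64.9 and 61.3 CPM (Mock) and 223 and 221 CPM (FGF8+10), and CENPA, the centromeric histone, at 6.03 and 6.34 CPM (Mock) and 19.8 and 21.4 CPM (FGF8+10). The MCM helicase subunits MCM6 and MCM7 rose by 1.19 ± 0.037 and 1.26 ± 0.032, and UHRF1, which maintains DNA methylation at replication, by 1.25 ± 0.049. The FGF8+10 effect differed between the populations for 40 of 42 mitosis genes, and all 40 had the more positive effect in Pdgfra-low cells, where the median was 1.44 against 0.93 in Pdgfra-positive cells. Over all 22554 genes 26.0% differed, 3165 of them with the more positive effect in Pdgfra-low cells. BUB1, a spindle checkpoint kinase, rose by 2.01 ± 0.044 here and 1.49 ± 0.046 there. Among cyclins and their inhibitors CCND1, the G1 cyclin induced by growth factors, rose from 36.2 and 31.8 to 287 and 292 CPM, while CCND2 fell from 165 and 167 to 71.6 and 70.9 CPM. The inhibitor gene CDKN1C fell from 186 and 173 to 52.7 and 52.3 CPM and CDKN2B rose from 0.394 and 0.116 to 7.36 and 9.52 CPM. Of 25 p53 target genes 18 were higher and 3 lower, among them the apoptosis gene BAX (1.06 ± 0.056) and GDF15, which had log2 fold changes of 1.5 ± 0.19 here and -0.79 ± 0.36 in Pdgfra-positive cells.

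Genes of the amino acid stress response, which the factor ATF4 drives when amino acids are short or the kinase mTORC1 is active, fell. Of 31 genes 26 were lower and 3 higher (median -1.08), and of 22 cytosolic tRNA synthetases 15 were lower and 4 higher. ATF4 with its C/EBP partners binds the element TTGCATCA. These letters occurred on either strand in 5 of 26 promoters of the first list (19.2%), in 6 of 18 synthetase promoters (33.3%) and in 1.08% of all genes. Upstream stretches with the element in capitals, drawn as above, were:
CHAC1, chr15:40953232-40953299, plus strand: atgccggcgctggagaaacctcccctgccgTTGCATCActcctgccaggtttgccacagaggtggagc
SLC1A5, chr19:46784874-46784941, minus strand: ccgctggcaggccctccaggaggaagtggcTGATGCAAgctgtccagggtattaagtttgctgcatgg
CEBPG, chr19:33374041-33374108, plus strand: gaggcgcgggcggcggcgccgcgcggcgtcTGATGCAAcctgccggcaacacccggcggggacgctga
AARS1, chr16:70289656-70289723, minus strand: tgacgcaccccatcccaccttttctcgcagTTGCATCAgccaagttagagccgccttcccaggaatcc
IARS1, chr9:92293698-92293740, minus strand: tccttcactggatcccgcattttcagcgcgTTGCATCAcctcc

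CHAC1, a glutathione-degrading enzyme and a sensitive ATF4 target, was at 21.2 and 23.1 CPM with Mock and 2.26 and 2.49 CPM with FGF8+10. The glutamine transporter SLC1A5 fell by 0.89 ± 0.031, CEBPG by 0.61 ± 0.045, and the alanine and isoleucine tRNA synthetases AARS1 and IARS1 by 0.93 ± 0.028 and 0.91 ± 0.023. ATF4 RNA itself fell by 0.49 ± 0.023, from 497 and 506 to 352 and 364 CPM. VLDLR fell further, from 238 and 233 to 5.17 and 5.75 CPM, and the mitochondrial folate enzyme ALDH1L2 from 82.9 and 84.5 to 8.26 and 8.41 CPM. The asparagine synthetase gene ASNS fell by 2.38 ± 0.21, with 49.3% of its exon bases shared with other genes. The cytosolic folate genes SHMT1 and MTHFD1 and the transporter gene SLC38A2 were the 3 that rose.

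Cholesterol synthesis genes mostly rose in Pdgfra-low cells and mostly fell in Pdgfra-positive cells. In Pdgfra-low cells 17 of 25 genes were higher with FGF8+10 and 5 lower (median 0.46), and in Pdgfra-positive cells 4 were higher and 19 lower (median -0.28). The difference between the effects was called for 24 genes, each with the more positive effect in Pdgfra-low cells. Of the 25 genes, 11 were called in opposite directions under the TMM scaling, higher here and lower there. Opposite signs were not counted under other scalings. ACAT2, an acetyl-CoA thiolase at the start of the pathway, was at 46.8 and 49.1 CPM with Mock and 139.7 and 141 CPM with FGF8+10, and FDFT1, squalene synthase, at 175 and 181 CPM (Mock) and 318 and 316 CPM (FGF8+10). ACAT2 also rose in Pdgfra-positive cells, by 0.29 ± 0.045, and 22.2% of its exon bases are shared with other genes. INSIG1, a feedback sensor of the pathway, rose by 1.32 ± 0.039 here against 0.29 ± 0.039 in Pdgfra-positive cells. In fatty acid synthesis ACLY rose by 0.66 ± 0.026 against -0.10 ± 0.026, and the list as a whole had 9 of 29 higher and 16 lower. In glycolysis, where the split was 11 higher and 15 lower of 29 (14 and 11 under library totals alone), the isozymes PFKP and PKM rose by 1.52 ± 0.036 and 0.93 ± 0.023. The glucose transporter gene SLC2A1 and the hexokinase gene HK2 fell by 2.20 ± 0.036 and 1.46 ± 0.063. The hypoxia-induced carbonic anhydrase gene CA12 fell from 38.3 and 42.4 to 0.962 and 0.887 CPM, a fall of 5.45 ± 0.14 against -1.30 ± 0.17 in Pdgfra-positive cells.

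Large protein machines moved by small amounts in many members. Of 45 proteasome subunits 33 were higher and 1 lower (median 0.26), of 81 nuclear genes of the respiratory chain 54 and 9 (0.25), and of 77 mitochondrial ribosomal proteins 41 and 8 (0.25). Cytosolic ribosomal proteins went the other way, 62 of 85 lower and 6 higher (median -0.24), a split that narrowed to 46 and 22 under library totals alone. RPL14 fell by 0.73 ± 0.022 and RPS12 by 0.38 ± 0.023. The genes that build ribosomes did not fall with them: 15 of 41 were higher and 10 lower, against 3 and 33 in Pdgfra-positive cells, and all 34 genes with a called difference had the more positive effect in Pdgfra-low cells. Chaperones showed a like split between populations, 17 of 30 higher and 11 lower here and 8 and 18 there. HSPA8 rose by 0.73 ± 0.019 here and 0.22 ± 0.019 there, and the small heat shock genes CRYAB and HSPB7 fell by 3.90 ± 0.21 and 3.64 ± 0.14 here.

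**Figure D5:**
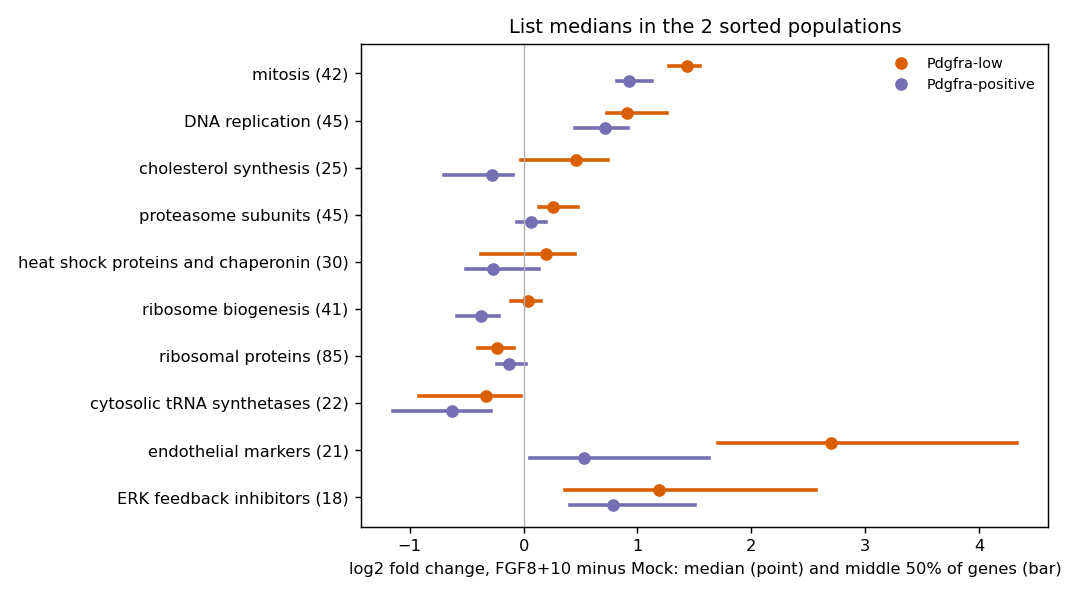
Points are the median log2 fold change (FGF8+10 minus Mock) over the genes of a list, and bars span the middle 50% of its genes, in Pdgfra-low (orange) and Pdgfra-positive cells (purple). Cholesterol synthesis lies above 0 in Pdgfra-low and below 0 in Pdgfra-positive cells, and endothelial markers and mitosis genes lie further to the right in Pdgfra-low cells.

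Endothelial markers rose as a group. Of 21 markers 19 were higher and 0 lower (median 2.70), against 12 and 3 in Pdgfra-positive cells (median 0.53), and 15 differed, each with the more positive effect in Pdgfra-low cells. The defining adhesion gene PECAM1 was at 0.706 and 0.645 CPM with Mock and 19.4 and 17.5 CPM with FGF8+10. CDH5, the cadherin of endothelial junctions, was at 1.66 and 1.14 CPM with Mock and 19.4 and 20.2 CPM with FGF8+10. ESAM, of endothelial tight junctions, rose from 0.772 and 0.662 to 16.2 and 16.5 CPM and CD34, of vessel and blood progenitors, from 0.690 and 1.22 to 13.8 and 15.7 CPM. The summed level of the list was 1585 and 1576 CPM with Mock and 3065 and 3068 CPM with FGF8+10, most of it KDR, which lateral plate mesoderm also expresses. The rises of GATA2, TAL1, SOX7, SOX18, ERG, FLI1, BMP6 and EDN1 came from the same libraries as those of PECAM1 and CDH5, and the part of endothelial cells in them was not tested. The summed level of the blood list was 13.5 and 15.4 CPM with Mock and 132 and 136 CPM with FGF8+10, most of it GATA2, while the defining marker PTPRC was at most 0.102 CPM in any Pdgfra-low library.

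Marker lists of other cell types moved in different directions. The cardiac troponin gene TNNT2 was at 47.6 and 46.7 CPM with Mock and 0.264 and 0.171 CPM with FGF8+10, and MYH6 was at most 0.0493 CPM. Of 9 tested cardiac markers 7 were lower and 0 higher, and their summed level went from 202 and 193 to 45.1 and 46.6 CPM. The mesothelium and epicardium list had 5 of 11 higher and 6 lower, with a summed level of 1262 and 1254 CPM with Mock and 629 and 643 CPM with FGF8+10. TBX18 and LRRN4 of that list rose by 1.49 ± 0.13 and 0.45 ± 0.032, and UPK3B and PDPN fell from 15.2 and 12.8 to 0.717 and 0.614 CPM and from 450.4 and 443 to 30.2 and 33.8 CPM. UPK3B fell by 4.40 ± 0.22 here against -0.98 ± 0.42 in Pdgfra-positive cells (adjusted p of the difference = 6.65e-07). The epithelial marker CDH1 had 4 counts with FGF8+10, and KRT18, a simple keratin, rose by 0.98 ± 0.032 against 0.023 ± 0.035 there. Of 5 endoderm markers 4 were higher and 0 lower, with a summed level of 23.1 and 22.7 CPM with Mock and 116 and 111 CPM with FGF8+10, most of it CDX2. The defining endoderm marker SOX17, also known from arterial endothelium, was at 0.0329 and 0.265 CPM with Mock and 2.19 and 2.56 CPM with FGF8+10, and the other, FOXA2, had no count. Of 7 neural and neural crest markers 4 were higher and 2 lower, of 5 skeletal muscle and somite markers 3 and 1, and of 8 kidney markers 4 and 4. The progenitor gene NES, which is not limited to the neural lineage, rose from 81.8 and 76.9 to 293 and 287 CPM, and STMN2, of neurons, fell from 129 and 129 to 6.30 and 6.5 CPM. The defining neural marker SOX2 was at 1.22 and 1.42 CPM with Mock and 0 and 0.0682 CPM with FGF8+10. MEOX2 of somites rose from 0.542 and 0.711 to 5.68 and 6.33 CPM and MEOX1 fell from 6.18 and 6.53 to 0.151 and 0.136 CPM. The defining mesothelial marker WT1 was at 0 and 0.0331 CPM with Mock and 0.415 and 0.375 CPM with FGF8+10. The smooth muscle list had 3 of 11 higher and 5 lower. Higher and lower were, of 13 epithelial markers 3 and 4, of 7 pluripotency and streak markers 3 and 2, and of 9 blood markers 3 and 3. CNN1 of smooth muscle went from 19.4 and 17.0 to 7.39 and 6.14 CPM, and MYH11 and EPCAM stayed near 1 CPM or below. Of the 22 defining markers of 11 other cell types, 12 stayed under 0.5 CPM in all 4 libraries, among them POU5F1, NANOG, MYOD1, PAX3, PAX2, PAX8, SOX10 and FOXA2. The part of cells with these markers in the changes of other genes was not tested.

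Of the genes called in Pdgfra-low cells, 8824 were called in the same direction in Pdgfra-positive cells. The comparisons do not share libraries, but they share the scaling and the spread estimate. In opposite directions 462 genes were called, 240 of them higher in Pdgfra-low and lower in Pdgfra-positive cells and 222 the reverse. The first set includes 11 cholesterol synthesis genes. Opposite signs were counted under the TMM scaling only, and where a change is small its sign is relative to that scaling. The count of differing effects was 5862 with TMM and 5865 under library totals alone. MEST, an imprinted hydrolase gene of embryonic mesoderm, rose from 552 and 556 to 1128 and 1118 CPM here and had a log2 fold change of -0.12 ± 0.021 there (adjusted p of the difference = 5.64e-31). Of the exon bases of MEST, 27.6% are shared with other genes. DLK1, another imprinted gene and a Notch-like ligand, fell by 1.11 ± 0.036 here and had a log2 fold change of 0.56 ± 0.035 there.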

How the data were processed

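RNA was measured in 8 libraries of sorted H1-derived cells, 4 groups of 2, assigned by sample titles. The authors deposited 1 table of raw read counts per gene name. Per the submitters' processing notes, FastQC 0.11.8, HISAT2 2.1.0 and GRCh38 were used. Per the file headers, featureCounts 2.0.3 counted exons of GENCODE 42 by gene name in paired mode, with no strand setting and no option to count pairs, so each mate added 1 count. Totals of the Pdgfra-low libraries were 49790227 to 63990830 counts.

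Genes were kept with edgeR's filterByExpr (22554 of 61209 names), scaled by TMM and tested with edgeR 4.0.16 (quasi-likelihood, robust) in R 4.3.3 with limma 3.58.1, in 1 model over all 8 libraries. The contrasts were FGF8+10 minus Mock in each population and their difference, adjusted by Benjamini-Hochberg at 0.05. Alternatives were other scalings, filters, DESeq2 1.42.0, halved counts, only the Pdgfra-low libraries, a replicate block and each library left out. No sample column was left unused.

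A group with no count was given a floor of 6 counts (3 read pairs). Intervals of count ratios cover counting error only, because reads carried no molecular identifiers and may repeat a molecule. Percent of exon bases shared was computed from the reference annotation.

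The comparison and gene lists were chosen with earlier results of these data known. Named genes were, per list, up to 4 rises and 4 falls with the largest change among called genes of at least 1 CPM in either group, and the most abundant per kilobase. The FGF ligand, receptor, feedback inhibitor and ETS lists were named in full. Ranks 11 to 30 of all rises and falls and the 10 largest changes in CPM each way could be named too. HOXD13 was named after its values were seen, and CENPA, MCM6, MCM7, UHRF1, SLC1A5, CEBPG and IARS1 for their promoter motifs. Some genes that this rule would name are not reported here.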

Additional observations from a re-analysis of the deposited data

Results flagged for a closer look

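The FGF8+10 effect differed between Pdgfra-low and Pdgfra-positive cells for 5862 genes by edgeR's test of the difference itself. Among genes called in opposite directions, each by at least 2-fold and with at least 5 CPM in some group, 4 stood out, given as log2 differences of the effects (Pdgfra-low minus Pdgfra-positive). KCNIP1, a potassium channel partner, had -3.39. The difference was 3.2 for APLNR, the apelin receptor of mesoderm and endothelium, 3.21 for TIE1, an endothelial receptor, and 3.27 for SP6, a zinc finger factor of limb ectoderm. APLNR was at 4.75 and 6.43 CPM with Mock and 21.5 and 23.6 CPM with FGF8+10 in Pdgfra-low cells, and TIE1 at 3.50 and 3.84 CPM (Mock) and 14.7 and 14.3 CPM (FGF8+10). The endothelial markers PECAM1 and CDH5 moved in the same libraries, and their part in these differences was not tested.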

How the results depend on the processing

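The 4 counts of genes higher or lower with FGF8+10 and the count of differing effects stayed within 1.5 times their values under every alternative run. Library totals alone gave 8113 higher and 4672 lower. DESeq2 gave 5999 and 5721. Leaving out 1 library at a time gave 5679 to 5783 higher and 5550 to 5629 lower, 1979 to 2030 and 2448 to 2526 at 2-fold or more, and 5012 to 5343 differing effects. The replicate numbers did not pair the libraries: deviations of same-numbered libraries correlated at -0.0176 to 0.0354, and the replicate block gave 6261 higher, 6190 lower and 5824 differing effects. Under library totals alone the median of 13 of the 104 lists changed sign. Among the lists and genes described here, the sign turned for the medians of glycolysis (0.065), immediate early factors (0.022) and limb mesenchyme genes (0.091), and for DUSP7 (0.13), ELF2 (0.14), FRS2 (0.15) and HAND1 (0.11), by the construction of that scaling. With the stricter filter the Notch pathway median was 0.015 and the epithelial marker median 0.15. The peptide hormone median ran from -0.61 to 0.10 when 1 Pdgfra-low library was left out, the 0.10 without FGF8+10 replicate 1, and the blood marker median from -0.48 (without the same library) to 0.51. The cause was not tested. With 2 libraries per group, genes of few counts are the least certain.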
